A study of Mus musculus with 4 samples.

Results

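Among the leukocytes of B16-F10 melanomas, a population of macrophages carried abundant transcripts of the chemokine gene Cxcl9 together with MHC class II genes. The cells were selected by their counts of unique molecular identifiers (UMIs), 1 for each captured RNA molecule. Of 36694 barcodes, 35411 passed a minimum of 300 genes and a maximum of 10% mitochondrial UMIs, and 556 of these met every criterion. Each of the 556 cells had at least 20 UMIs of Cxcl9, at least 20 of H2-Ab1, at least 10 of C1qa, C1qb and C1qc together and at least 1 of Csf1r. Each had fewer than 10 UMIs of Arg1, of Ccl8 and of Vegfa, fewer than 5 of Nos2, fewer than 3 of Cd5l, none of Flt3, Cd3d, Cd3e or Cd3g, and at most 3 of Mki67 and Top2a together. They are called Cxcl9 macrophages here. The counts of these 17 genes chose the cells, so they are given as a description and support nothing.

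B16-F10 is a melanoma line that grows in mice after injection. Tumour-bearing mice received treatment on days 8 and 11, with harvest on day 14. A CD40 antibody, directed at a receptor through which T cells activate macrophages and dendritic cells, was injected into the tumour, and the protocol names dilution buffer as the alternative. An antibody to PD1, an inhibitory receptor of T cells, was given intravenously, with IgG as the alternative. The control group is described as IgG-treated, and the labels do not say group by group which alternatives were given. The 4 groups were a control, CD40 antibody alone (CD40), PD1 antibody alone (PD1) and both antibodies (combination), and the design text names the control as IgG-treated. All mice carried the same tumour line, and the sources used here do not give their strain, age or sex. Tumours were mashed through filters, and live CD45+ cells of 6 pooled mice per group made 1 5′ single-cell library. Each group is therefore 1 library, the spread between mice is not measured, and no difference between treatments was tested. Where 4 values follow each other, their order is control, CD40, PD1, combination.

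CXCL9 is a chemokine that draws T cells and NK cells carrying the receptor CXCR3. Macrophages make it mainly in answer to interferon gamma, which also raises MHC molecules, guanylate-binding proteins (GBPs) and immunity-related GTPases. MHC class II molecules present antigen to CD4 T cells. CCR2 is the receptor that brings monocytes from the blood into inflamed tissue, and calponin 3, made from Cnn3, is an actin-binding protein.

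The libraries held 117735875 to 164755549 UMIs, and the kept barcodes had a median of 11492 (control), 14833 (CD40), 11897 (PD1) and 13369.5 (combination) UMIs. Cxcl9 macrophages were deep cells, with medians of 22813.5, 32902.5, 19465.5 and 28859.5 UMIs in the same order. Their depth followed that of all macrophages of their library, whose medians were 21174, 31207, 19103 and 27138. Scrublet scored 2 of the 556 cells at or above 0.25, the threshold for a predicted doublet, beside 1.41% to 2.59% of the kept barcodes. Between 305 and 371 barcodes of each library also occurred in another library, and 1, 5, 3 and 2 Cxcl9 macrophages had such a barcode, none of which was a Cxcl9 macrophage elsewhere.

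Macrophage genes outside the rule were present at widely different levels. The lysozyme gene Lyz2 stood at 10359, 14574, 7782 and 9929 counts per 1000000 UMIs of the cells (CPM). The lysosomal marker Cd68 stood at 945, 961, 946 and 777 CPM, and Adgre1, which encodes F4/80, at 143, 127, 163 and 105 CPM. Mertk, another gene of the macrophage list, stood at 52.3, 60.3, 37.0 and 50.1 CPM. T cell and mast cell markers were low. The 10 T cell markers summed to 7.79 to 10.9 CPM, beside 591 to 1620 CPM over all kept barcodes, and with 1 to 5 of the 10 at 0, a floor partly set by the rule on Cd3 genes. The 7 melanoma markers summed to 9.45 to 15.8 CPM. The 5 mast cell and basophil markers were at 0 in every library but PD1, where they summed to 0.329 CPM. The 8 markers of type 2 conventional dendritic cells (cDC2) outside the rule summed to 439 to 617 CPM, beside 293 to 555 CPM over all kept barcodes, with 0 or 1 of the 8 at 0, and their part in the results was not tested. The marker at 0 was Cd209a, in the CD40 and the combination library. The 7 plasmacytoid dendritic cell markers summed to 457 to 570 CPM, beside 329 to 553 CPM, of which Bst2, also an interferon-induced gene, made 435, 406, 489 and 412 CPM, while Siglech, a defining marker, was at 0 in every library but PD1, with 0.165 CPM. The labels of all samples name the cell type as melanoma, whereas the sort kept CD45+ cells.

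NK, neutrophil and B cell markers were uneven. The 8 NK cell markers summed to 2.35, 13.1, 127 and 8.75 CPM, and the PD1 value came largely from Gzma, a granzyme gene, with 559 UMIs in 14 of 292 cells. The 9 neutrophil markers summed to 45.8, 44.5, 168 and 162 CPM. In the PD1 library 289 of 290 S100a9 UMIs lay in 1 cell, and in the combination library 195 of 196 Mmp9 UMIs did. The 7 B cell markers summed to 48.2, 4.73, 15.1 and 3.5 CPM, and all 25 Cd79a UMIs of the control lay in 1 cell. What these cells contribute to other genes was not tested.

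Cxcl9 itself had a median of 51.5, 59.5, 50 and 57 UMIs per cell and reached 510 UMIs in 1 CD40 cell. H2-Ab1 had medians of 140, 119, 114.5 and 110.5 UMIs, and the C1q genes, which encode the first component of complement, 144, 231, 99.5 and 119.5 UMIs. The threshold on Cxcl9 cut through a continuum, with 64 cells at 20 to 24 UMIs and 70 cells at 15 to 19 that met every other criterion. Of all cells that failed 1 criterion only, 1054 failed on Cxcl9, 563 on C1q and 258 on Ccl8. A further 102 failed on the cycling genes, 97 on Cd3 genes, 96 on Nos2, 92 on H2-Ab1 and 75 on Arg1. The share failing only on C1q was uneven, with 45, 62, 289 and 167 cells.

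Cxcl9 macrophages made up the largest share of macrophages in the PD1 library. Of the cells that passed the C1q, Csf1r, Flt3, Cd3 and cycling criteria, called the macrophage gate, 70 of 1207 in the control were Cxcl9 macrophages, or 5.80% (95% exact Clopper-Pearson interval 4.55 to 7.27%). In the CD40 library they were 102 of 1042, or 9.79% (8.05 to 11.8%). In the PD1 library they were 292 of 1575, or 18.5% (16.6 to 20.5%), and in the combination library 92 of 729, or 12.6% (10.3 to 15.3%). The intervals cover counting error only, and the PD1 interval does not overlap the others. With PD1 antibody the share was higher than without it in both comparisons, by a log2 ratio of 1.68 (1.32 to 2.04) for PD1 over control and 0.37 (-0.02 to 0.75) for combination over CD40, whose interval includes 0. With CD40 antibody it was higher in CD40 over control, at 0.76 (0.33 to 1.18), and lower in combination over PD1, at -0.55 (-0.87 to -0.24). Of all kept barcodes the shares were 0.892%, 1.29%, 2.94% and 0.947%, and combination over CD40 then lay at -0.45.

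**Figure D1:**
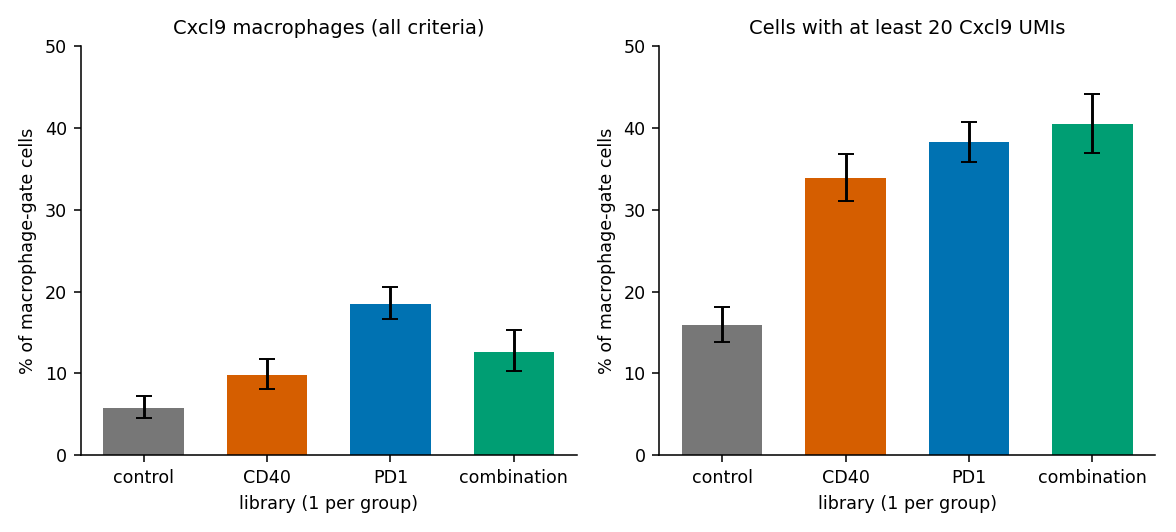
Percentage of macrophage-gate cells (y axis, in percent) that met every criterion (left) or that had at least 20 Cxcl9 UMIs (right), in 1 library per group, with 95% exact Clopper-Pearson intervals as bars. The PD1 library is highest on the left at 18.5%, while the CD40, PD1 and combination libraries lie between 33.9% and 40.5% on the right.

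The order of the libraries depended on which criteria were applied. Cells of the macrophage gate with at least 20 Cxcl9 UMIs were 15.9% (13.9 to 18.1%), 33.9% (31.0 to 36.8%), 38.2% (35.8 to 40.7%) and 40.5% (36.9 to 44.1%), so all 3 treated libraries were above the control. Of the 164, 282, 518 and 255 such cells that also passed on H2-Ab1, Nos2, the inducible nitric oxide synthase gene, was at or over its limit in 5.49%, 24.5%, 12.9% and 36.1%. Nos2 thus took more of them in both libraries with CD40 antibody. Ccl8, a monocyte chemokine gene, was over its limit in 43.9%, 37.9%, 25.1% and 32.9%, and Arg1, the arginase gene, in 18.3%, 17.7%, 16.6% and 20.8%. Cd5l, a macrophage scavenger gene, was over its limit in 0 of 164 control cells, which allows a share of up to 2.22% (exact binomial), and in 5.67%, 0.193% and 3.53% of the others. The cells left after every limit were 42.7%, 36.2%, 56.4% and 36.1%. Since the limits are raw UMIs, depth enters too. After thinning each cell to 8000 UMIs the shares of the gate were 2.75%, 3.8%, 10.1% and 4.72%, with PD1 again highest and combination over PD1 at -1.09. T cells, which should lack Cxcl9, had 20 or more UMIs in 1 of 1385, 1 of 1619, 4 of 1506 and 1 of 2887 cells.

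To find what sets Cxcl9 macrophages apart, they were compared with 3 other populations of the macrophage gate in the same libraries. Cxcl9-low macrophages met the same criteria but had fewer than 5 Cxcl9 UMIs, and numbered 255, 149, 256 and 87. Ccl8 macrophages (215, 186, 217 and 89 cells) had at least 10 UMIs of Ccl8, and Arg1 macrophages (248, 114, 231 and 49 cells) at least 10 of Arg1, and both had few of Nos2 and Cd5l. Neither was given an upper limit on Cxcl9, so both can hold cells rich in Cxcl9. Cells that missed the Cxcl9 macrophages only by their Ccl8 UMIs numbered 59, 66, 90 and 43. Those that missed them only by their Arg1 UMIs numbered 14, 14, 41 and 6. What such cells add to the comparisons was not tested. UMIs were summed per library and population, and edgeR's quasi-likelihood test was run on the 16 sums with library as a block, so that the 4 libraries are the replicates of a difference between populations. A gene was called at a Benjamini-Hochberg adjusted p under 0.05 and a log2 fold change of at least 1 in size. The rule genes and the 13 mitochondrial genes were not tested. Genes that vary with Cxcl9 from cell to cell are favoured by this choice of cells, and the fit does not measure the spread between mice.

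Compared with Cxcl9-low macrophages, Cxcl9 macrophages carried more transcripts of interferon gamma response genes, of the costimulatory receptor gene Cd40 and of a few genes with other roles, while no tested MHC class II or monocyte gene was called. Of 10701 genes tested, 54 were called higher (0.505%) and 24 lower (0.224%). All 54 were higher in each of the 4 libraries, and 23 of them reached 50 CPM. First in rank, by its smallest ratio in any library, was Ch25h, which encodes cholesterol 25-hydroxylase, an interferon-induced enzyme that makes an antiviral oxysterol. It stood at 25.8, 61.7, 137 and 109 CPM in the Cxcl9 macrophages and at 7.29, 11.7, 21.0 and 8.45 CPM in the Cxcl9-low macrophages. The groups did not overlap, and the log2 fold change was 2.67 ± 0.47 (SE, 4 libraries, edgeR adjusted p = 0.0159). Only 22.9%, 37.3%, 39.7% and 32.6% of the Cxcl9 macrophages had a Ch25h UMI, so its level rests on a minority of the cells. In T cells, which should lack it and were shallower, the share was 0.217% to 0.398%. Thinned to 5000 UMIs, 5.71%, 9.8%, 29.1% and 15.2% of Cxcl9 macrophages had a Ch25h UMI. These thinned shares were 1.57%, 4.7%, 4.72% and 4.65% in Cxcl9-low macrophages and 0.0742% to 0.243% in T cells.

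Cxcl10, a chemokine gene for the same receptor CXCR3 and the near neighbour of Cxcl9 on chromosome 5 (GRCm38 chr5:92346638-92348889, minus strand), stood at 709, 1121, 1610 and 1107 CPM and at 134, 105, 682 and 262 CPM in Cxcl9-low macrophages. Every Cxcl9 macrophage sum was above every Cxcl9-low sum, though the control and the PD1 value, at 709 and 682 CPM, lay close together. The log2 fold change was 2.19 ± 0.44 (SE, edgeR adjusted p = 0.0280). A Cxcl10 UMI was found in 50% of the Cxcl9 macrophages of the control library, where the median cell stood at 12.8 CPM and the upper quartile at 510 CPM. The protease inhibitor gene Serpina3g stood at 281, 243, 473 and 455 CPM and at 23.7, 84.8, 105 and 174 CPM, a log2 fold change of 2.13 ± 0.31. Gbp2 stood at 668, 690, 1694 and 1468 CPM and at 109, 370, 576 and 730 CPM, with a log2 fold change of 1.54 ± 0.28. Its control and CD40 values in Cxcl9 macrophages lay below the combination value in Cxcl9-low macrophages, so the difference held within libraries and not across them.

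Cnn3 (GRCm38 chr3:121426497-121458207, plus strand), proposed as a marker of these cells from the same data and so no independent support, stood at 102, 60.9, 259 and 206 CPM and at 18.1, 28.7, 83.6 and 73.6 CPM in Cxcl9-low macrophages. It was higher in each library, by a log2 fold change of 1.69 ± 0.27 (SE, edgeR adjusted p = 0.00814), and the CD40 value of Cxcl9 macrophages lay below the PD1 and combination values of Cxcl9-low macrophages. After thinning to 5000 UMIs, 38.6%, 24.5%, 62.7% and 55.4% of Cxcl9 macrophages had a Cnn3 UMI, against 7.48%, 12.1%, 26.8% and 24.4% of Cxcl9-low macrophages and 0.667% to 1.57% of T cells. Unthinned, these were 74.3%, 64.7%, 87.3% and 85.9% of Cxcl9 macrophages. Cnn3 was also called higher than in Ccl8 macrophages, by 1.80, and than in Arg1 macrophages, by 1.46 (without the PD1 library edgeR adjusted p = 0.0616). Cnn2, its paralog, was not called in these comparisons, at -0.37, 0.87 and 0.53. Ccr2 did not mark the cells in the same way. It stood at 389, 219, 583 and 407 CPM and at 586, 290, 535 and 392 CPM in Cxcl9-low macrophages, with a log2 fold change of -0.17 (edgeR adjusted p = 0.855). It was called higher than in Ccl8 macrophages, by 2.64, and was at 0.59 against Arg1 macrophages, which missed the test (edgeR adjusted p = 0.182).

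The other leading genes that were higher had log2 fold changes from 1.01 to 1.61. Acod1 makes itaconate, a metabolite of activated macrophages, and stood at 170, 337, 378 and 359 CPM against 54.4, 70.7, 170 and 169 CPM (1.54 ± 0.31). Pdcd1lg2 encodes PD-L2, a ligand of PD1, and stood at 57.6, 27.5, 103 and 74.2 CPM against 25, 13.2, 39 and 31.8 CPM (1.27 ± 0.22). Icam1, an adhesion molecule gene, was the steadiest, at 123, 166, 209 and 184 CPM against 63.7, 86.2, 101 and 94.9 CPM (1.01 ± 0.07, edgeR adjusted p = 1.96e-07). Klrk1, which encodes the receptor NKG2D known mainly from lymphocytes, stood at 73.4, 35.3, 143 and 84.7 CPM against 16.3, 16.4, 49.3 and 45.2 CPM (1.47 ± 0.23). After thinning to 5000 UMIs, 27.1%, 14.7%, 47.9% and 32.6% of Cxcl9 macrophages had a Klrk1 UMI, against 5.91%, 9.4%, 21.7% and 14% of Cxcl9-low macrophages and 38.1% to 57.1% of T cells, and what free RNA of lymphocytes adds was not tested. The transcription factor gene Batf2 (1.39), the GTPase gene Iigp1 (1.61) and Gbp5 (1.39) completed the list. Only 2 lower genes reached 50 CPM. Ms4a4a, a surface protein gene of tissue macrophages, stood at 162, 62.6, 152 and 94.5 CPM against 321, 145, 302 and 247 CPM (-1.10 ± 0.10, edgeR adjusted p = 1.69e-05), and the epithelial membrane protein gene Emp1 lay at -1.0. Folr2, the folate receptor gene of resident macrophages, was lower still relative to its level (-1.40), at 4.55 to 11.7 CPM against 13.5 to 28.9 CPM.

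**Figure D2:**
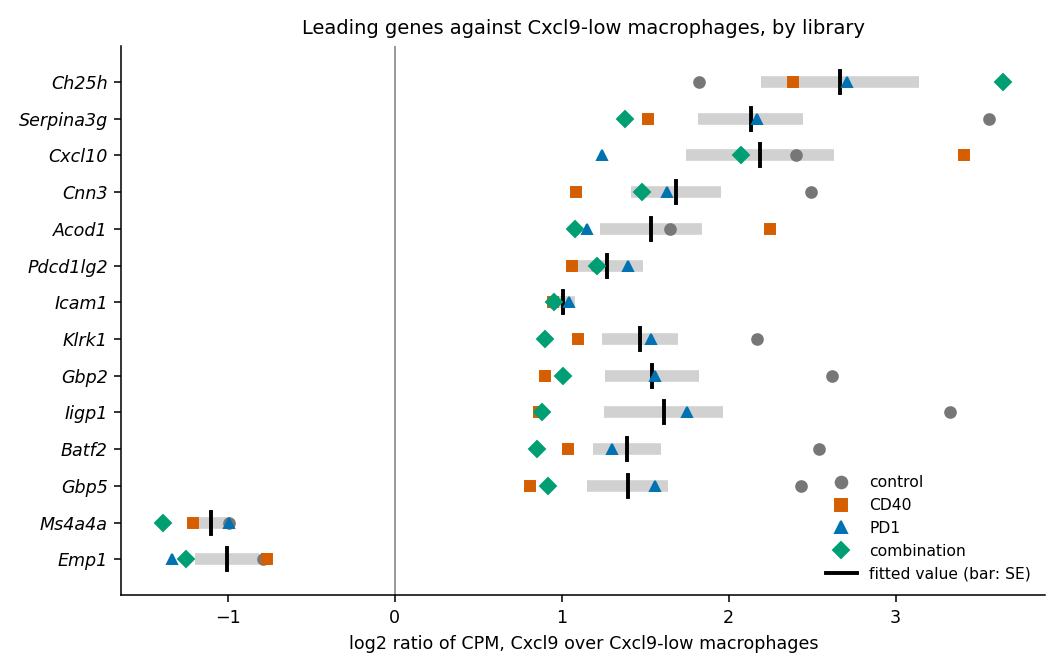
Log2 ratio of CPM in Cxcl9 over Cxcl9-low macrophages (x axis) for the 14 leading genes (y axis). Points are the 4 libraries, black ticks the fitted log2 fold changes and grey bars their SE. Every point of the 12 upper genes lies right of 0, and the control library is the farthest right for Serpina3g, Cnn3, Klrk1, Gbp2, Iigp1, Batf2 and Gbp5.

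These calls were not equally firm. Ms4a4a was called under all 10 alternative settings, Klrk1 under 9, Cnn3, Pdcd1lg2, Icam1, Batf2 and Gbp5 under 8, Ch25h and Serpina3g under 7 and Gbp2 under 6. Cxcl10 and Acod1 kept their call under 5, Iigp1 under 4 and Emp1 under 3 of 10. Without the PD1 library, which held most of the cells, 21 genes were called higher and 12 lower, and without the control 35 were higher and 18 lower. In edgeR's test without PD1 the adjusted p was 0.129 for Cnn3, 0.104 for Ch25h, 0.0695 for Cxcl10, 0.0922 for Serpina3g, 0.164 for Gbp2, 0.154 for Acod1 and 0.283 for Iigp1, with log2 fold changes of 1.53 to 2.64. Without the control, Cnn3 had an adjusted p of 0.0524 at a log2 fold change of 1.46, Ch25h 0.0524, Cxcl10 0.166, Gbp2 0.0690 and Iigp1 0.0524. Without the CD40 library the adjusted p was 0.102 for Ch25h and 0.106 for Cxcl10, and without the combination library 0.0978 for Cxcl10 and 0.0502 for Gbp2. Serpina3g, the Gbp, Ifit, Irgm and Tgtp genes and Iigp1 belong to families of similar genes between which reads can be misassigned, so single members are uncertain.

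The gene lists placed these genes in context. At the adjusted p alone, 455 of all 10701 genes tested passed against Cxcl9-low macrophages, in either direction. Of 25 interferon gamma response genes tested, 8 were called higher and 0 lower, and the list's median log2 fold change was 0.85, beside -0.01 for all genes tested. Without the PD1 library 0 of the list were called, without the control 5, and 1 when only the 2 populations were fitted. The log2 fold changes without the PD1 library were close to those with it, at 1.53 for Gbp2, 1.32 for Gbp5 and 1.28 for Socs1. A further 9 were higher at the adjusted p alone, among them the transcription factor genes Irf8 (0.85) and Irf1 (0.73) and Cd274 (0.55), which encodes PD-L1. Ifngr1, which encodes a chain of the interferon gamma receptor, was the 1 member lower at the adjusted p (-0.41), at 125, 165, 138 and 128 CPM against 182, 167, 195 and 219 CPM. Socs1, a feedback inhibitor of the pathway, was called higher (1.27), at 225, 205, 484 and 302 CPM against 56.2, 101, 207 and 176 CPM. Of 23 type I interferon response genes, 0 were called by edgeR, and 1, Ifi205 (0.87), was higher at the adjusted p alone, with a median of 0.20.

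Antigen presentation differed less. Of 18 MHC class I presentation genes, 0 were called, but 11 were higher at the adjusted p alone and all 18 lay above 0, with a median of 0.44. Over all 10701 genes tested, 455 passed the adjusted p, in either direction. Tap2 (0.64) and Tap1 (0.61), the peptide transporter genes, led. Of 11 MHC class II genes outside the rule, 0 were called and 1, Ifi30, was higher at the adjusted p alone (0.37), with a median of 0.34. H2-Aa stood at 6199.7, 4704, 6549 and 5318 CPM against 6039, 3800.1, 5971 and 5496 CPM. Both populations had to have 20 H2-Ab1 UMIs. Of 24 costimulation, checkpoint and cytokine genes, 8 were higher at the adjusted p and 3 of these were called, Cd40, Pdcd1lg2 and Icam1. Cd40, the target of the injected antibody, stood at 154, 111, 226 and 131 CPM against 46.2, 47.9, 87.2 and 78.5 CPM (1.31, edgeR adjusted p = 0.00693), with every Cxcl9 macrophage value above every Cxcl9-low value. Il27 (0.92) and Il18bp (0.79), which encode a cytokine subunit and the inhibitor of interleukin 18, passed the adjusted p only. Il12b, a subunit gene of interleukin 12, had 50 UMIs, all in 1 PD1 cell, and 0 in the other libraries.

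Few genes of the other lists were called. Of 16 monocyte genes, 0 were called and 0 passed the adjusted p, with a median of -0.18. Of 15 macrophage identity genes, 0 were called and 4 lay above 0, with a median of -0.15. At the adjusted p alone, 2 of these 15 were higher and 3 lower. Of 18 suppressive and tissue-repair genes, 17 lay below 0 and 1, Folr2, was called, with a median of -0.58. Of 15 chemokine genes, 1 was called higher, Cxcl10, and Cxcl16, the membrane-bound ligand of CXCR6, was higher at the adjusted p alone (0.69). Of 16 actin and calponin genes, Cnn3 was the 1 called. Of 16 proliferation genes left in the test, 0 were called, though all 16 lay above 0 with a median of 0.42, the rule having removed cells with more than 3 Mki67 and Top2a UMIs from both populations. Of 8 complement genes, 0 were called, and factor B, Cfb, was higher at the adjusted p alone (0.90). Cxcl11 and Mx1 were not analysed here.

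Transcripts of type 1 conventional dendritic cells (cDC1) were present in Cxcl9 macrophages. Clec9a, which encodes a receptor for dead cells used by cDC1 cells, stood at 31.7, 11.7, 36.7 and 29.1 CPM in Cxcl9 macrophages and at 1.49, 2.58, 8.03 and 5.47 CPM in Cxcl9-low macrophages. The groups did not overlap, the log2 fold change was 2.72 (edgeR adjusted p = 1.72e-05), and the call held under all 10 alternatives. A Clec9a UMI was found in 32.9%, 18.6%, 29.8% and 25% of Cxcl9 macrophages, against 0.0693% to 0.939% of T cells, which were shallower. No control or CD40 cell, 1 PD1 cell and 2 combination cells had 10 or more. Thinned to 5000 UMIs, 15.7%, 1.96%, 10.6% and 7.61% of Cxcl9 macrophages had a Clec9a UMI. These thinned shares were 0.787%, 0.671%, 4.33% and 1.16% in Cxcl9-low macrophages and 0.0674% to 0.787% in T cells. Xcr1, the chemokine receptor gene that defines cDC1 cells, had 1, 5, 19 and 16 UMIs in 1, 4, 6 and 5 cells, and was called higher on these few UMIs. The other tested cDC1 genes were not called, with Cadm1 at 0.51, Batf3 at 0.19 and Wdfy4 at -0.16. The 7 cDC1 markers summed to 181 to 212 CPM, against 137 to 166 CPM in Cxcl9-low macrophages, with 0 to 2 of the 7 at 0 in each library. By library the sums were 181, 188, 212 and 211 CPM, beside 270, 131, 190 and 83.7 CPM over all kept barcodes. The sum was higher in Ccl8 macrophages, at 292 to 302 CPM, and lower in Arg1 macrophages, at 69.0 to 100 CPM. Flt3, a receptor of dendritic cells, was at 0 by the rule, and what dendritic cells add to the Clec9a level was not tested.

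Promoter windows of 300 bases are shown for Cxcl9 and for some of the genes that were higher together with it, with 2 motifs of interferon-activated factors in capitals. The first is the core of the interferon-stimulated response element, spelled GAAA, any 2 bases and GAAA again, and the second the gamma-activated site, TTCNNNGAA, both searched on both strands. Sequences are from RefSeq (GRCm38.p6), run 5′ to 3′ on the gene's strand from 250 bases before the start to 50 after it, and cover chr5:92328030-92328329 (Cxcl9), chr5:92348840-92349139 (Cxcl10), chr3:142496684-142496983 (Gbp5), chr16:10785487-10785786 (Socs1) and chr3:121426291-121426590 (Cnn3).
Cxcl9: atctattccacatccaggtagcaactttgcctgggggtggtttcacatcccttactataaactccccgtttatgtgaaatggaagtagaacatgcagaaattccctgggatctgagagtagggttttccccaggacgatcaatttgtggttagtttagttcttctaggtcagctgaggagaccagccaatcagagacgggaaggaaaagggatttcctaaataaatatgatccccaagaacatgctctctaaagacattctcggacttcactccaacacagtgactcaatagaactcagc
Cxcl10: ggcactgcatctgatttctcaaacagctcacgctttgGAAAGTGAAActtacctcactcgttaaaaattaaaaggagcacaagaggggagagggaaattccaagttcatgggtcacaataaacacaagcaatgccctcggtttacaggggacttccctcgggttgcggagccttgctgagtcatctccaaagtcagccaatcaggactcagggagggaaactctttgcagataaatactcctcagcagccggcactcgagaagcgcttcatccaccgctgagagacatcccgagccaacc
Gbp5: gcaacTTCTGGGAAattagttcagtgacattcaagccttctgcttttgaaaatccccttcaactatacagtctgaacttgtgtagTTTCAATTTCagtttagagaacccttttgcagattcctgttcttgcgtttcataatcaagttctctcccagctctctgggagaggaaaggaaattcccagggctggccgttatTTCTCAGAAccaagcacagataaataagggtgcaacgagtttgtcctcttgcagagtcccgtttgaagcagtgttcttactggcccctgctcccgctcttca
Socs1: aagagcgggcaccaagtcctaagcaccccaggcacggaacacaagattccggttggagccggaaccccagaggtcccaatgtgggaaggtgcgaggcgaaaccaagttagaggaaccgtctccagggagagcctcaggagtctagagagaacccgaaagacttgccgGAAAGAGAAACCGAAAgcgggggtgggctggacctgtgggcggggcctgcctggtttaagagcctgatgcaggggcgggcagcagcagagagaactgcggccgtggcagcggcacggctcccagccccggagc
Cnn3: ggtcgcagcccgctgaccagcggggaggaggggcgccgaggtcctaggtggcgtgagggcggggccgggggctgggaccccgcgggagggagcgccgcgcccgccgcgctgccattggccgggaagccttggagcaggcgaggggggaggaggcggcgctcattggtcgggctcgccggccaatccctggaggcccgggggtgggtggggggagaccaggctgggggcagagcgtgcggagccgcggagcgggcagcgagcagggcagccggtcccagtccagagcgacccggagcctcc
The Cxcl10 window held the first motif 213 bases before the start, and the Socs1 window held it at 83 and 77 bases, with the matches overlapping. The Gbp5 window held the first motif 165 bases before the start and the second at 245 and 52 bases. Neither motif occurred in the Cxcl9 and Cnn3 windows, which says only that these letters are not in these windows. Other windows were searched and are not shown. Those of Ch25h and Acod1 held neither motif, that of Gbp2 held the first, and those of Serpina3g and Icam1 the second. Of 32851 promoters of the table, 3.44% held the first motif and 8.30% the second. Among 10901 promoters of genes tested these were 3.48% and 6.91%. Of the 47 promoters of 39 genes called higher than in Cxcl9-low macrophages that the table holds, 8 held the first (17.0%) and 11 the second (23.4%), and of 31 promoters of genes called lower 0 and 2 did. A match is a description of letters, not a site.

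Ccl8 macrophages differed from Cxcl9 macrophages in many more genes, with 495 called higher in Cxcl9 macrophages (4.63%) and 430 lower (4.02%). Genes of recruited monocytes and of MHC class II were higher in Cxcl9 macrophages, and genes of resident, lipid-handling macrophages lower. The leading higher gene was Ly6i, a surface antigen gene of monocytes, at 142, 416, 381 and 756 CPM against 7.65, 34.7, 50.9 and 39.3 CPM (3.68 ± 0.36, edgeR adjusted p = 4.71e-05). Plac8, a gene of monocytes and neutrophils, stood at 382, 343, 1295 and 1144 CPM against 56.1, 57.6, 243 and 93.3 CPM (2.87). Gpr141 (2.89), Spint1 (3.11) and AA467197 (2.53) followed. Of 16 monocyte genes, 12 were called higher and 0 lower, with a median of 2.07. Ly6c2, the gene of the classical monocyte antigen, stood at 517, 312, 1235 and 723 CPM in Cxcl9 macrophages (2.79). Of 11 MHC class II genes, 9 were called higher, among them Ciita, the master activator of the class (2.05), with a median of 1.62. Ccl8 macrophages had no threshold on H2-Ab1, so this difference is partly set by the choice of cells. Markers of cDC2 cells moved with it, 5 of 7 tested being called higher and 0 lower (median 2.40), among them Cd209a (4.68) and Dpp4 (3.54), while Clec10a (0.05) and Sirpa (-0.44) were not called. Cd209a rested on few cells, with 54, 0, 39 and 0 UMIs in 5, 0, 7 and 0 Cxcl9 macrophages. Of the 54 control UMIs, 32 lay in 1 cell. Of 6 neutrophil markers tested, 3 were called higher. The part of other cells in these differences was not tested. Il1b, the interleukin 1 beta gene, was higher (3.18).

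The genes lower than in Ccl8 macrophages were led by Gas6, which encodes a bridge between dying cells and TAM receptors, at 15.3, 6.12, 1.32 and 1.40 CPM against 214, 80.8, 104 and 74.9 CPM (-4.55 ± 0.40). Folr2 (-3.67), the myelin protein gene Pmp22 (-3.70), the carbonyl reductase gene Cbr2 (-3.54) and Pf4, the platelet factor 4 gene also made by macrophages (-3.13), followed. Of 23 lysosome and lipid genes, 10 were called lower and 0 higher, with a median of -0.76. Apoe lay at -1.95 and Gpnmb at -2.33. Of 18 suppressive and tissue-repair genes, 9 were called lower and 2 higher, Mgl2 (1.54) and Chil3 (2.18). Mrc1, the mannose receptor gene, lay at -1.99, Trem2, a lipid receptor gene, at -1.70, and Ms4a7, a macrophage gene, at -1.99. The interferon gamma list had 11 of 25 called higher, 6 without the PD1 library and 7 without the control, and 6 of 16 proliferation genes were lower.

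Against Arg1 macrophages, 277 genes were called higher in Cxcl9 macrophages (2.59%) and 308 lower (2.88%), with interferon gamma and MHC class II genes among the higher and chemokine, suppressive and hypoxia genes among the lower. Gbp2b led, at 27.0, 32.0, 130 and 44.1 CPM against 4.71, 4.48, 14.5 and 3.49 CPM (2.91 ± 0.57, edgeR adjusted p = 0.00523). Serpina3g (2.44), Calhm6 (2.54), the ion channel gene Tmem176b (2.48) and Ciita (2.31) followed, and 17 of 25 interferon gamma genes and 8 of 11 MHC class II genes were called higher. Without the PD1 library these were 10 and 5, and without the control 10 and 3. Arg1 macrophages, too, had no threshold on H2-Ab1. Of 7 cDC2 markers tested, 4 were called higher (median 2.87), and of 5 cDC1 markers 4 (median 1.48), and their part in the result was not tested. Cxcl3, a neutrophil chemokine gene, was lowest relative to Arg1 macrophages, at 32.9, 0.556, 0.659 and 8.05 CPM against 249, 325, 173 and 220 CPM (-5.22 ± 0.85). Pf4 (-3.71), the GTPase gene Rhov (-2.84) and Folr2 (-3.06) were lower too. Of 21 glycolysis and hypoxia genes, 19 were lower at the adjusted p, 6 of these were called, and 0 were called higher. Over all 10701 genes tested, 2294 passed the adjusted p, in either direction. Vegfa, which the rule used, was not among the 21. Cxcl9 macrophages had fewer than 10 Vegfa UMIs, while Arg1 macrophages had no limit on Vegfa. The difference in these genes is therefore partly set by the choice of cells. Egln3, the oxygen-sensing hydroxylase gene (-2.90), Hilpda, a lipid droplet gene (-3.07), and Bnip3, a mitophagy gene (-1.48), are induced by low oxygen. Of 15 chemokine genes, 9 were called lower and 2 higher, Cxcl10 (1.41) and Ccl22 (2.54). Of 18 suppressive and tissue-repair genes, 10 were called lower and 0 higher (median -1.46), among them Spp1, the osteopontin gene (-2.66). Of 16 monocyte genes, 2 were called in each direction, with Fn1, the fibronectin gene, lower (-2.14). The 5 leading genes in each direction against Ccl8 and against Arg1 macrophages kept their calls under all 10 alternatives, except Cxcl3, with an adjusted p of 0.0589 when only the 2 populations were fitted.

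**Figure D3:**
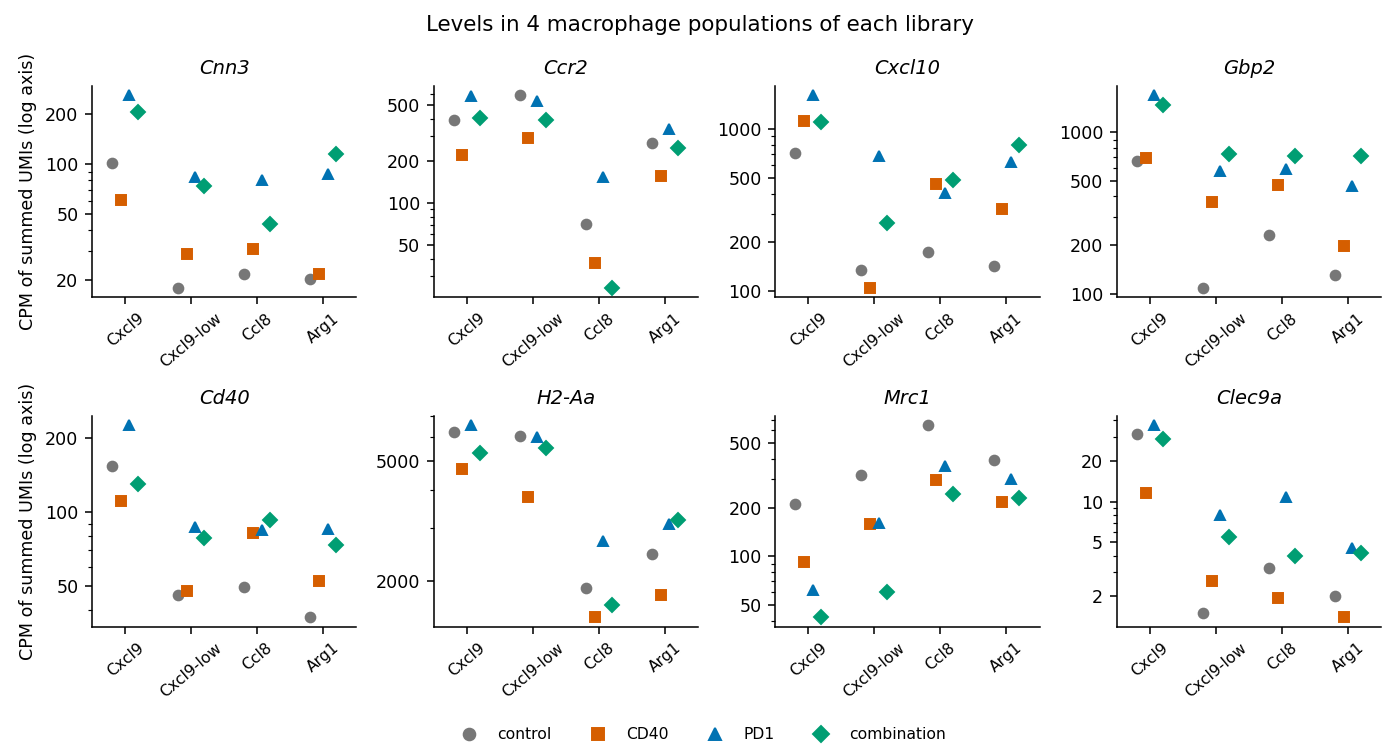
CPM of summed UMIs (y axis, log scale) of 8 genes in the Cxcl9, Cxcl9-low, Ccl8 and Arg1 macrophages (x axis) of the 4 libraries. Cnn3 and Clec9a are highest in the Cxcl9 macrophages of each library, Ccr2 and H2-Aa overlap between Cxcl9 and Cxcl9-low macrophages, and Mrc1 is highest in the Ccl8 macrophages of each library.

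Within the Cxcl9 macrophages, cells with more Cxcl9 UMIs were split into bands of 20 to 39, 40 to 79 and 80 or more, as a description. Gbp2 was higher in each higher band, in the control (298, 744 and 920 CPM), the CD40 (505, 634 and 910 CPM), the PD1 (1421, 1644 and 2094 CPM) and the combination library (861, 1395 and 1983 CPM). Mrc1 ran the other way, at 329, 182 and 138 CPM in the control and 77.7, 36.4 and 19.7 CPM in the combination library, and was lower in each higher band of the other two. Cnn3 had no common order, with 60.7, 128 and 111 CPM in the control and 248, 242 and 294 CPM in the PD1 library. For Cxcl10 the control bands had 425, 724 and 953 CPM, and the PD1 bands 1784, 1452 and 1582 CPM. The median depth of the bands was 25276, 20199 and 24271.5 UMIs in the control and 18331, 19168 and 21139 UMIs in the PD1 library, where it differed less between bands than Gbp2 did. Cells of 1 library are not replicates, and no test was made.

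Between libraries, gene levels within the Cxcl9 macrophages were compared for each antibody in a pair of comparisons that share no library. A gene was counted if it differed at least 2-fold in the same direction in both, and its higher library had to reach 50 CPM and 30 UMIs. With the CD40 antibody, 11 of 2912 eligible genes were higher (0.378%) and 10 lower (0.343%). With the PD1 antibody, 21 of 2937 were higher (0.715%) and 7 lower (0.238%). Ranges in parentheses below are 95% exact conditional binomial intervals of the log2 ratio, which cover counting error and not the spread between cells or mice.

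With CD40 antibody, Dst and Vcam1 were among the genes higher in the Cxcl9 macrophages in both comparisons, and Cd83 and Klrb1b among those lower. These genes moved the same way over all kept barcodes, so the shifts were not particular to Cxcl9 macrophages. There Dst stood at 26.0, 55.4, 28.0 and 44.7 CPM and Vcam1 at 49.8, 103, 31.7 and 52.8 CPM. Cd83 stood there at 104, 34.4, 93.8 and 19.8 CPM and Klrb1b at 32.0, 12.8, 40.6 and 17.7 CPM. In Cxcl9 macrophages Dst, which encodes a cytoskeletal linker protein, stood at 18.8, 119, 33.6 and 87.9 CPM. The log2 ratio was 2.66 (2.14 to 3.23) for CD40 over control and 1.39 (1.11 to 1.66) for combination over PD1. It was spread over the cells, since 25.7%, 80.4%, 31.2% and 63.0% of them had a UMI, and 8.57%, 37.3%, 10.6% and 31.5% after thinning to 5000 UMIs (T cells 1.42% to 5.43%). Among Cxcl9-low macrophages the thinned shares for Dst were 11.4%, 18.8%, 7.87% and 18.6%. Vcam1, an adhesion molecule gene, stood at 22.9, 95.6, 31.9 and 126 CPM, with log2 ratios of 2.06 (1.58 to 2.58) and 1.98 (1.73 to 2.24), and 18.6%, 52.0%, 14.7% and 42.4% of cells had a UMI, or 5.71%, 20.6%, 6.51% and 21.7% after thinning (T cells 0.0983% to 0.222%). Clec4d, a C-type lectin gene, stood at 64.6, 149.9, 46.6 and 136 CPM, with ratios of 1.21 and 1.54, and Cd81, a tetraspanin gene, at 112, 316, 114 and 270.2 CPM, with ratios of 1.5 and 1.25. The lamin gene Lmna stood at 166, 377, 58.3 and 222 CPM, with ratios of 1.19 and 1.93 that were 0.63 and 1.17 in cells of 10000 to 30000 UMIs, and Tspan3 had 1.2 and 1.15.

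Ctsk, the cathepsin K gene, had the widest difference on paper and rested on single cells. It stood at 1.17, 89.2, 2.96 and 143 CPM, from 2, 321, 18 and 409 UMIs. Of the 409 combination UMIs, 402 lay in 1 cell, and of the 321 CD40 UMIs, 165 did. The log2 ratio of combination over PD1 was 5.59 (4.92 to 6.36), and 0.44 without the highest cell of each library, an alternative chosen after seeing the data. CD40 over control rests on 2 control UMIs and has an interval of 4.38 to 9.30. In cells of 10000 to 30000 UMIs the ratios were 0.05 and 0.97. Ctsk was higher in the Cxcl9-low macrophages of the same libraries, at 7.29, 449, 6.91 and 273 CPM. Acp5, a lysosomal phosphatase gene, also had 34.0% of its combination UMIs in 1 cell, and its ratios of 1.71 and 1.36 were 0.78 and 0.62 in cells of 10000 to 30000 UMIs.

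**Figure D4:**
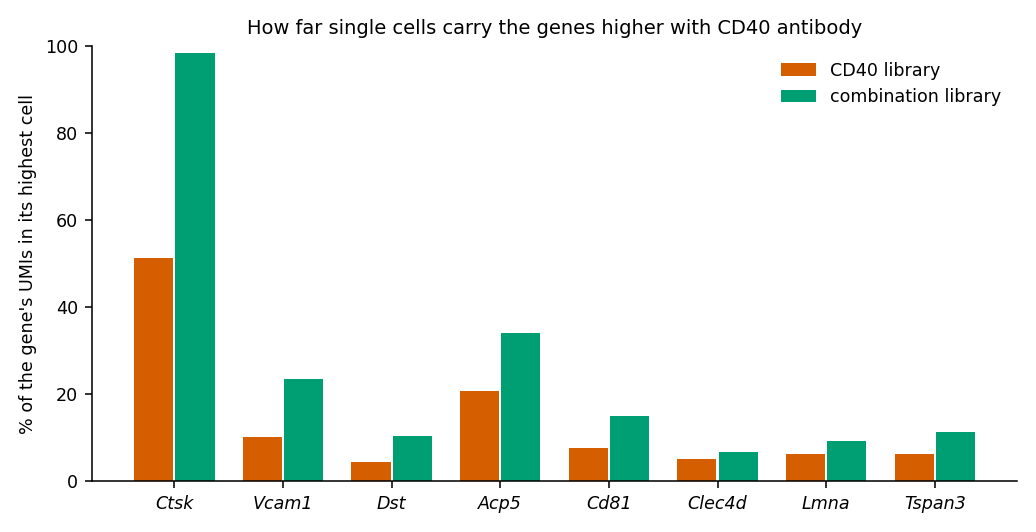
Percentage of each gene's UMIs (y axis, in percent) that came from its highest Cxcl9 macrophage in the CD40 and combination libraries, for the 8 leading genes higher with CD40 antibody (x axis). Ctsk stands out at 51.4% and 98.3%, while the highest cell held 4.44% and 10.4% of Dst.

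Among the genes lower with CD40 antibody, Cd83, a maturation marker that stabilises MHC class II and CD86 at the surface, stood at 106, 35.9, 103 and 18.6 CPM. The log2 ratios were -1.57 (-1.90 to -1.23) and -2.47 (-2.90 to -2.06), and 74.3%, 34.3%, 60.3% and 33.7% of cells had a UMI, or 41.4%, 12.7%, 29.5% and 12% after thinning (T cells 0.667% to 7.28%). Among Cxcl9-low macrophages the thinned shares for Cd83 were 24.8%, 10.1%, 27.6% and 8.14%. Klrb1b, an inhibitory lectin receptor gene, stood at 56.4, 15.8, 73.9 and 27.0 CPM, with ratios of -1.83 and -1.46, and Atf3, a stress-induced transcription factor gene, at 169, 79.2, 147 and 66.5 CPM, with -1.09 and -1.14. Tmem176b had ratios of -1.06 and -2.17, the first of which was -0.32 in cells of 10000 to 30000 UMIs. The interferon-induced genes Ifit1 (-1.29 and -1.21), Rsad2 (-1.17 and -2.32) and Ifit3 (-1.02 and -1.63) were lower in both comparisons. In cells of 10000 to 30000 UMIs, CD40 over control turned to 0.27 for Rsad2 and 0.53 for Ifit3 and lay at -0.51 for Ifit1, while combination over PD1 stayed below 0 for all 3, at -2.66, -1.21 and -0.73.

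With PD1 antibody, Spon1 and Plac8 were among the genes higher in both comparisons, and Gpnmb and Mrc1 among those lower. Spon1, a matrix protein gene, stood at 22.3, 13.3, 85.5 and 68.3 CPM. Both libraries with PD1 antibody lay above both without it, and the log2 ratio was 1.94 (1.46 to 2.45) for PD1 over control and 2.35 (1.89 to 2.84) for combination over CD40. A UMI was found in 25.7%, 21.6%, 52.4% and 60.9% of cells, or 2.86%, 10.8%, 27.1% and 27.2% after thinning (T cells 0.27% to 0.688%). Among Cxcl9-low macrophages the thinned shares for Spon1 were 16.1%, 12.8%, 16.1% and 19.8%. Plac8 stood at 382, 343, 1295 and 1144 CPM, with ratios of 1.76 and 1.74. Ptgs2, the inducible cyclooxygenase gene, stood at 28.8, 12.8, 80.7 and 52.5 CPM, with 1.49 and 2.04. The uridine phosphorylase gene Upp1 had ratios of 1.40 and 1.92 and the tetraspanin gene Tspan13 1.36 and 1.57. Cnn3 was higher with PD1 antibody as well, by 1.34 and 1.76, and its values for CD40 antibody were -0.75 and -0.33.

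Mmp12, the macrophage elastase gene, stood at 107, 162, 16 and 24.5 CPM, with log2 ratios of -2.75 (-3.12 to -2.39) and -2.72 (-3.10 to -2.36). It was found in 21.4%, 20.6%, 3.08% and 7.61% of cells, or 12.9%, 12.7%, 2.05% and 5.43% after thinning (T cells 0.445% to 0.742%), and 35.8% of its CD40 UMIs lay in 1 cell. In cells with at least 40 Cxcl9 UMIs combination over CD40 was -0.66. Mrc1 stood at 211, 92.6, 62.1 and 42.0 CPM, with ratios of -1.77 and -1.14, and 57.1%, 45.1%, 25.7% and 19.6% of cells had a UMI, or 40%, 17.6%, 12.7% and 7.61% after thinning (T cells 0.0674% to 0.885%). Among Cxcl9-low macrophages the thinned shares were 54.7%, 28.2%, 30.3% and 11.6% for Mrc1. For Mmp12 they were 15.7%, 14.1%, 10.2% and 6.98% there. Gpnmb, a glycoprotein gene of lipid-laden macrophages, stood at 106, 307, 32.1 and 66.2 CPM, with -1.72 and -2.21, the metalloproteinase inhibitor gene Timp2 had -1.27 and -1.63, and the membrane-bending protein gene Mtss1 -1.19 and -1.16. In cells of 10000 to 30000 UMIs only 9 genes were higher and 4 lower with the PD1 antibody by the same rule. Spon1 and Plac8 kept ratios of 1.42 or more there, Mmp12, Gpnmb and Mrc1 stayed at -1.14 or below, and PD1 over control lay at 0.92 for Ptgs2, 0.94 for Tspan13, -0.99 for Timp2 and -0.84 for Mtss1.

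Interferon gamma response and monocyte genes were higher with PD1 antibody, and MHC class II genes lower with CD40 antibody. The comparisons of the 2 antibodies share libraries and are set side by side without a test. Of 26 interferon gamma response genes, 25 were higher in PD1 over control, 14 of them at least 2-fold. Of all 11835 measured genes, 5561 were higher there, 368 of them at least 2-fold. The list's median log2 ratio was 1.01, beside -0.03 for all measured genes. In combination over CD40, 24 of 26 were higher, with a median of 0.72, beside 5893 of all measured genes. For the CD40 antibody the medians were -0.08 in CD40 over control and -0.27 in combination over PD1, where 24 of 26 were lower, beside 5568 of all measured genes. Irf1 stood at 220, 227, 503 and 346 CPM, so that both libraries with PD1 antibody were above both without it. Cd274 stood at 157, 185, 349 and 276 CPM, in the same order. In cells of 10000 to 30000 UMIs the medians of the PD1 antibody were 0.68 and 0.57. Cxcl9-low macrophages moved the same way in Gbp2, at 109, 370, 576 and 730 CPM, and in Gbp5, at 17.4, 54.7, 85.9 and 109 CPM. For these genes the rise with PD1 antibody was thus not particular to Cxcl9 macrophages.

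Monocyte genes had medians of 1.16 in PD1 over control and 0.88 in combination over CD40, with Ly6c2 at 517, 312, 1235 and 723 CPM. MHC class I presentation genes were higher in 18 of 18 (median 0.62) and 16 of 18 (0.41). Of all 11835 measured genes, 5561 and 5893 were higher in these comparisons. In CD40 over control and combination over PD1, 6124 and 5568 of all measured genes were lower. MHC class II genes were lower with CD40 antibody, in 10 of 12 genes in CD40 over control (median -0.60) and 9 of 12 in combination over PD1 (-0.31). The rule asked for 20 raw H2-Ab1 UMIs, and the cells were deeper with CD40 antibody, at medians of 22813.5, 32902.5, 19465.5 and 28859.5 UMIs. Deeper cells pass such a threshold at a lower CPM, and its part in these medians was not tested. Cd74, the invariant chain gene, stood at 18763, 13621, 19371 and 15582 CPM, with H2-Aa in the same order. Type I interferon genes were lower with CD40 antibody, in 20 of 23 (-0.56) and 22 of 23 (-0.46), and higher with PD1 antibody, in 22 of 23 (0.60) and 19 of 23 (0.76). In cells of 10000 to 30000 UMIs the first of these medians was -0.07. Suppressive and tissue-repair genes had medians of -0.86 (-0.30 in cells of 10000 to 30000 UMIs) and -0.47 with PD1 antibody, and costimulation and cytokine genes 0.76 and 0.56. Chemokine genes other than Cxcl9 had a median of -0.93 in CD40 over control but -0.04 in combination over PD1. Cxcl10 stood at 709, 1121, 1610 and 1107 CPM and Ccl5, a T cell chemokine gene, at 161, 70.9, 323 and 108 CPM, lower in both libraries with CD40 antibody than in the library without it. Proliferation genes were higher with CD40 antibody (0.51 and 0.29) and lower with PD1 antibody (-0.67 and -0.88), and in cells of 10000 to 30000 UMIs the first pair turned to -0.08 and -0.09.

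**Figure D5:**
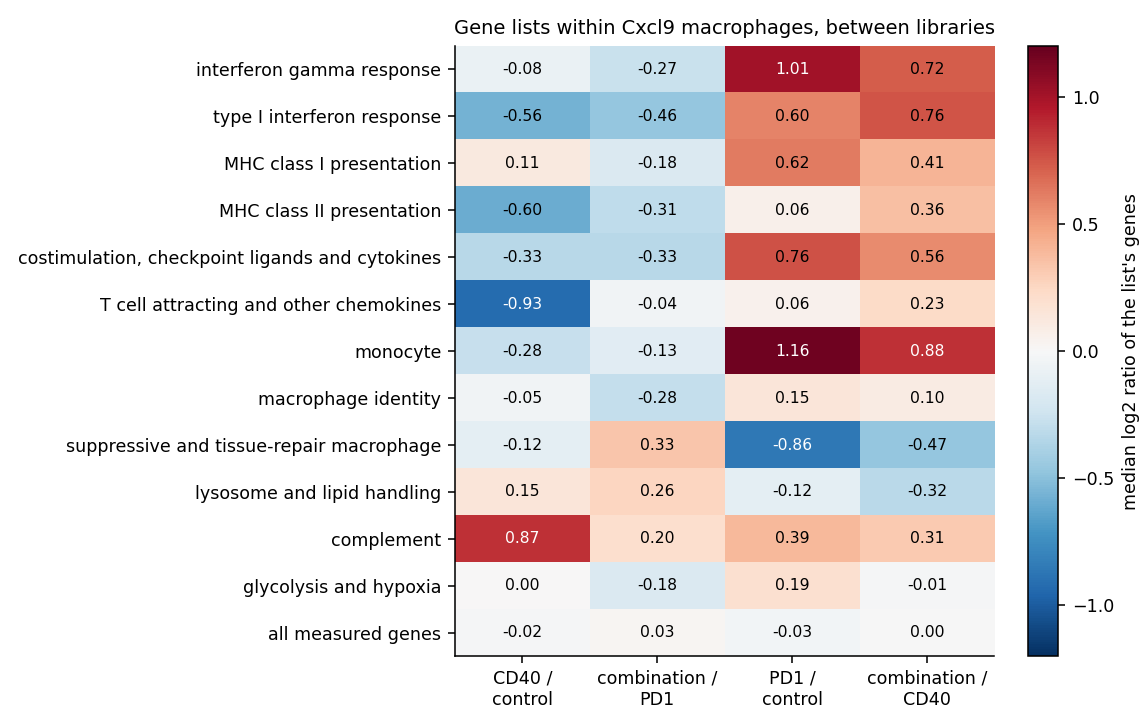
Median log2 ratio within Cxcl9 macrophages of 12 gene lists and of all measured genes (rows) in 4 comparisons of libraries (columns), written in each cell and shown by colour. In PD1 over control the medians run from 1.16 for monocyte genes to -0.86 for suppressive and tissue-repair genes, and in CD40 over control from 0.87 for complement to -0.93 for chemokine genes.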

How the data were processed

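The authors' deposited matrices hold UMI counts of 32285 genes per barcode for 4 libraries of CD45+ tumour cells, made with Cell Ranger 7.0.0, per the submitters' processing notes, on a 5′ kit, per the labels. The counts were used as deposited. Barcodes with under 300 genes or over 10% mitochondrial UMIs were left out. Doublets were scored with scanpy 1.11.5 and kept.

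UMIs were summed per population and library and tested with edgeR 4.0.16 (quasi-likelihood, library as block, 16 sums, Benjamini-Hochberg adjustment), with DESeq2 1.42.0 as an alternative. The test was also run on simulated sums with known changes, which did not include the choice of cells by Cxcl9 and so cannot show its effect. Between libraries no test was possible, and exact 95% intervals cover counting error only, with a floor of 3 counts. Depth was addressed by thinning to 8000 or 5000 UMIs and by cells of 10000 to 30000 UMIs.

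Between populations, the text names called genes that differed the same way in all 4 libraries and reached 50 CPM, ranked by their smallest ratio, up to 12 per direction against Cxcl9-low and 5 against the other populations. Between libraries it names up to 8 (CD40 antibody) or 5 (PD1 antibody) per direction that were at least 2-fold in both comparisons, with 50 CPM, 30 UMIs and at least 0.5 times the level of all kept barcodes in the higher library. Members of 26 gene lists, Ccr2 and Cnn3 are named as well. The members and lists were chosen with earlier results of these data known. Some genes of these lists are counted but not reported here by name.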

Additional observations from a re-analysis of the deposited data

Results flagged for a closer look

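The share of macrophage-gate cells that were Cxcl9 macrophages differed in direction between the 2 comparisons for CD40 antibody. The log2 ratio was 0.76 for CD40 over control and -0.55 for combination over PD1. With 1 library per group, the difference between these ratios was not tested. The share of gate cells with at least 20 Cxcl9 UMIs was 15.9% for control, 33.9% for CD40, 38.2% for PD1 and 40.5% for combination, so without the other criteria combination over PD1 did not lie below 0.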

How the results depend on the processing

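In the share of Cxcl9 macrophages, combination over PD1 was -1.63 of all kept barcodes and -1.09 after thinning to 8000 UMIs, and combination over CD40 was -0.45 of all kept barcodes. Against Cxcl9-low macrophages, leaving out 1 library gave 21 to 59 genes higher and 12 to 27 lower, and no filter on low counts gave 77 higher and 56 lower. In cells of 10000 to 30000 UMIs, 9 genes were higher and 4 lower with PD1 antibody. There CD40 over control turned to 0.53 for Ifit3 and 0.27 for Rsad2, and list medians turned to -0.35 for complement and -0.076 for immediate early and heat shock genes (combination over CD40), -0.15 for lysosome and lipid genes (combination over PD1) and -0.0796 and -0.0923 for proliferation (CD40 over control and combination over PD1). The lysosome and lipid median was -0.0301 in cells with at least 40 Cxcl9 UMIs. The cause of these changes was not tested. Of 515 values of named genes between populations, 456 kept their side of the threshold, 53 lost the call and 6 gained it. Of 250 values of named genes between libraries, 61 moved and 2 turned in sign, and of 300 list medians 19 moved and 6 turned. No paired analysis between treatments was possible because each treatment has 1 library.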

Other observations

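Several genes of Cxcl9 macrophages lay almost wholly in 1 cell of a library. In the control, 1 cell held all 158 UMIs of Retnla, a resistin-like gene of alternatively activated macrophages, and 1 cell held 480 of 527 UMIs of the heat shock gene Hspa1a. In the PD1 library 1 cell held 267 of 278 S100a8 UMIs, and in the combination library 1 cell held 22 of 23 Cxcl3 UMIs. Of 21 glycolysis and hypoxia genes, 2 were called higher and 0 lower against Ccl8 macrophages, and 15 were higher at the adjusted p. Over all 10701 genes tested, 3356 passed the adjusted p against Ccl8 macrophages, in either direction.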
